A study of Mus musculus with 15 samples.

Results

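Imprinted growth-control genes are genes read from the copy of one parent only, and 8 of them were examined here by name: H19, Igf2r, Dlk1, Grb10, Peg3, Plagl1, Ndn and Mest. The deposited array table held 19296 genes with a probe set annotated to a single symbol, and 7 of the 8 were among them. H19 had no such probe set and was not analysed here. Each of the other 7 had 1 probe set, so no choice between probe sets was needed.

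The series compared RNA of sorted bone marrow cells from young and old mice in the context of replication stress and the functional decline of blood stem cells. It held 15 Affymetrix arrays. Young HSC (haematopoietic stem cells) had 5 arrays, Old HSC 3, Young GMP (granulocyte/macrophage progenitors) 4 and Old GMP 3. All mice were C57Bl/6 with no further allele or treatment named, labelled male, aged 6 to 12 weeks when young and 22 to 30 months when old. Both were double-sorted from lineage-negative, c-Kit+ marrow; HSC were Sca-1+ and CD150+ without Flk2 or CD48, and GMP were CD34+ and FcγR+ without Sca-1. Whether 1 mouse or a pool was put on an array is not stated in the labels, so a p-value measures the spread between arrays, which may be technical.

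Genomic imprinting marks one parental copy of a region by DNA methylation laid down in the germ line. Imprinted genes of the region are then read from one parental copy, which is not the same copy for every gene. Many imprinted genes act on growth: paternally expressed ones often promote it, maternally expressed ones often restrain it. In adult bone marrow several of them are known to be expressed in stem cells and to be lower in their progeny. The arrays measure RNA from both copies together, so neither the parental origin of a transcript nor methylation was analysed here.

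The promoters are shown for the genes that turned out to differ between stem cells and progenitors, because DNA methylation falls on CpG dinucleotides. Whether these stretches carry an imprint was not analysed here. Each line gives the 250 bases before the RefSeq start in GRCm38.p6, 5′ to 3′ on the gene's own strand, with every CpG in capitals. Ndn lies on the plus strand at chr7:62348027-62348276, Grb10 on the minus strand at chr11:12037421-12037670 and Igf2r on the minus strand at chr17:12769707-12769956.
Ndn: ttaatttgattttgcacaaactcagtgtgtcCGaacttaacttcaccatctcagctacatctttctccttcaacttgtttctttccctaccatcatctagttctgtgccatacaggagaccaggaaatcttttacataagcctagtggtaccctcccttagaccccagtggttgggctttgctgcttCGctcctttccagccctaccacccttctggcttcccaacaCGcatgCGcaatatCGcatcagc
Grb10: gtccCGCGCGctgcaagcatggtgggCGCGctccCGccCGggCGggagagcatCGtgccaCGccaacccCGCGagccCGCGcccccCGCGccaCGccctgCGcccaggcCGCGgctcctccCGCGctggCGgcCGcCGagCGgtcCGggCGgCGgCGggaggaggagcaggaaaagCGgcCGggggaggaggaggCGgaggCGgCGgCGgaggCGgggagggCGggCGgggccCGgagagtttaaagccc
Igf2r: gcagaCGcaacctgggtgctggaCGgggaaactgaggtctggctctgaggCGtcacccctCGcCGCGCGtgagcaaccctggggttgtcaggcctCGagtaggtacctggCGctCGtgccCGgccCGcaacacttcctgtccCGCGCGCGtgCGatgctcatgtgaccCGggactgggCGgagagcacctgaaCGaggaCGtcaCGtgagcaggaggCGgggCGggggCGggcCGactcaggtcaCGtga
These bases held 5 CpG in Ndn, 40 in Grb10 and 27 in Igf2r. The table lists another start for Grb10, with 8 CpG in its 250 upstream bases. The 3 stretches shown therefore do not share one CpG density. Which Grb10 start is used in these cells was not analysed here, and a link of CpG density to RNA level was not tested.

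RefSeq windows of 300 bases (250 before and 50 after a start) were found for the 7 measured genes, 10 windows in all, since Grb10 has 2 and Mest 3. Over all 32851 windows the median was 7 CpG. The CpG-rich Grb10 start held 45, and 98.1% of windows held fewer. Igf2r held 34 (92.3% held fewer) and Plagl1 26 (83.1%). The 3 Mest windows held 8, 17 and 17, Peg3 13, Ndn 11, Dlk1 9 and the other Grb10 start 9. The GC box GGGCGG, searched on both strands, occurred in 7 of the 10 windows and in 35.7% of all windows. The 7 were windows of Igf2r, Grb10 (the CpG-rich start), Plagl1, Ndn and Mest. All 3 Mest windows counted, though those that begin at bases 30737800 and 30737803 nearly coincide. The ETS core CCGGAA (14.9% of all windows), the palindromic NRF1 motif (0.971%), TATAAA (13.6%) and the YY1 motif GCCATNTT (6.05%) were in 0 of the 10.

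**Figure D1:**
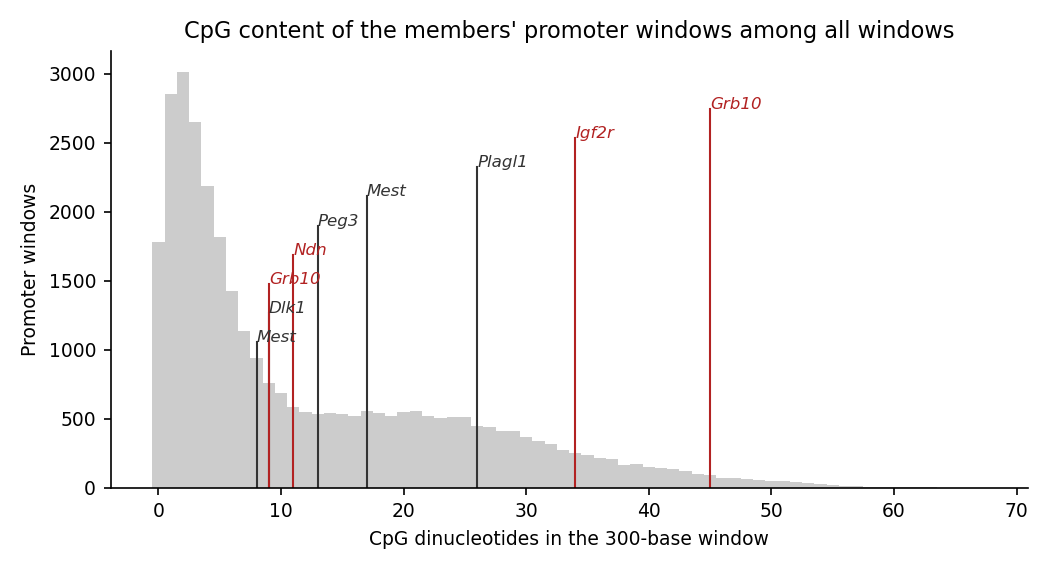
CpG dinucleotides per 300-base RefSeq promoter window (x axis) against the number of windows (y axis, grey bars, 32851 windows). Vertical lines mark the windows of the 7 measured genes, red for Ndn, Grb10 and Igf2r, with 1 line where windows of a gene have the same count; line height has no meaning. Grb10 has both a window with 45 CpG and one with 9, and Ndn sits at 11.

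The sorted populations carried the markers of their labels. The mean of 8 stem cell markers ran from 9.09 to 9.70 log2 on HSC arrays and from 6.74 to 7.08 on GMP arrays. That of 10 GMP markers ran from 6.73 to 6.90 on HSC arrays and from 10.3 to 10.7 on GMP arrays. Array medians lay between 7.25 and 7.42, while interquartile ranges ran from 1.96 (Old HSC 2) to 2.69 (Young HSC 1). Against the label male, Xist was raised on 7 of 9 young arrays (8.92 to 11.5, against 5.46 to 5.84 on the 6 old arrays), and Young HSC 4 and Young GMP 4 had the lowest Y-linked means, 4.94 and 5.20. The Y-linked means were 7.12 and 7.20 on Young HSC 2 and Young GMP 2. On Young HSC 3, Young HSC 5 and Young GMP 3 they were 8.47, 8.42 and 8.28, beside raised Xist. The old arrays had 8.45 to 8.80. Sex and age therefore overlap in these arrays, and whether an array held RNA of both sexes was not tested. Values without the 7 are given for the 7 measured genes between cell types and for the age differences of Ndn and Dlk1; that setting leaves 1 young array per cell type, assumed to vary like the others. Of the genes named below from the lists and clusters, all 20 calls with age in HSC were lost in that setting. Of their 28 calls between cell types in young mice 9 were lost in it: Igf1, Nrarp, Dnmt3b, Smc3, Maged2, Dio3, Sf3b5, Copg2 and Cep41.

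Ndn, Grb10 and Igf2r were higher in HSC than in GMP at both ages, and each HSC array lay above each GMP array of the same age for all 3 genes (11.7% of all genes did so in young and 16.3% in old mice). In young mice 3 of the 7 measured genes were called higher in HSC and 0 lower, where 13.6% of all genes were called higher and 24.6% in either direction (limma adjusted p under 0.05). In old mice the same 3 were called higher and 0 lower, where 9.25% of all genes were called higher and 22.2% in either direction. The median HSC minus GMP difference over the 7 genes was 0.29 log2 in young and 0.35 in old mice, against -0.05 and 0.02 over all genes. In bulk samples, fewer expressing cells and less RNA per cell cannot be told apart.

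Ndn encodes necdin, a MAGE-family protein that binds p53 and E2F1 and restrains cell cycle entry, and is read from the paternal copy. Its level on the Young HSC arrays was 9.90, 9.74, 9.23, 7.57 and 10.03 log2 (replicates 1 to 5). On the Old HSC arrays it was 8.87, 8.54 and 8.89. On the GMP arrays it was 5.58, 5.64, 6.16 and 5.91 in young and 5.85, 5.72 and 5.72 in old mice. The HSC arrays lay above their own array medians on 8 of 8 arrays, and the GMP arrays below their lower quartiles on 7 of 7. The young difference was 3.47 ± 0.33 log2 (SE, limma adjusted p = 1.47e-07). The old difference was 3.00 ± 0.41 (limma adjusted p = 1.56e-05). Whether the GMP signals of Ndn stand above background was not analysed here, so no fold is given. The young difference was 4.33 (limma adjusted p = 4.59e-07) without the 7 young arrays that go against the sex label.

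Grb10 encodes an adaptor that binds the insulin and IGF1 receptors and dampens their signal, and is maternally expressed outside the nervous system. Its level was 9.05, 9.35, 9.06, 8.57 and 8.97 on the Young HSC arrays and 9.06, 8.81 and 8.63 on the Old HSC arrays. On the GMP arrays it was 7.57, 7.42, 7.48 and 7.57 in young and 7.17, 7.11 and 7.56 in old mice. The lowest HSC array stood 0.998 log2 above the highest GMP array in young mice and 1.07 above it in old mice. The differences were 1.49 ± 0.14 (2.82-fold, limma adjusted p = 9.87e-08) in young and 1.55 ± 0.17 (2.93-fold, limma adjusted p = 1.18e-06) in old mice. Without the 7 young arrays the young difference was 1.48 (limma adjusted p = 0.00495).

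Igf2r encodes the cation-independent mannose-6-phosphate receptor, which takes up IGF2 for breakdown in lysosomes, and is maternally expressed in mice. Its level was 8.36, 8.28, 8.26, 7.69 and 7.91 on the Young HSC arrays and 8.03, 7.90 and 7.81 on the Old HSC arrays. On the GMP arrays it was 6.90, 6.81, 6.90 and 7.21 in young and 7.02, 6.56 and 6.49 in old mice. All 8 HSC arrays lay above and all 7 GMP arrays below their array median. The differences were 1.14 ± 0.14 (2.21-fold, limma adjusted p = 5.28e-06) in young and 1.22 ± 0.18 (2.33-fold, limma adjusted p = 3.25e-05) in old mice. Without the 7 young arrays the young difference was 1.45 (limma adjusted p = 0.00476).

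**Figure D2:**
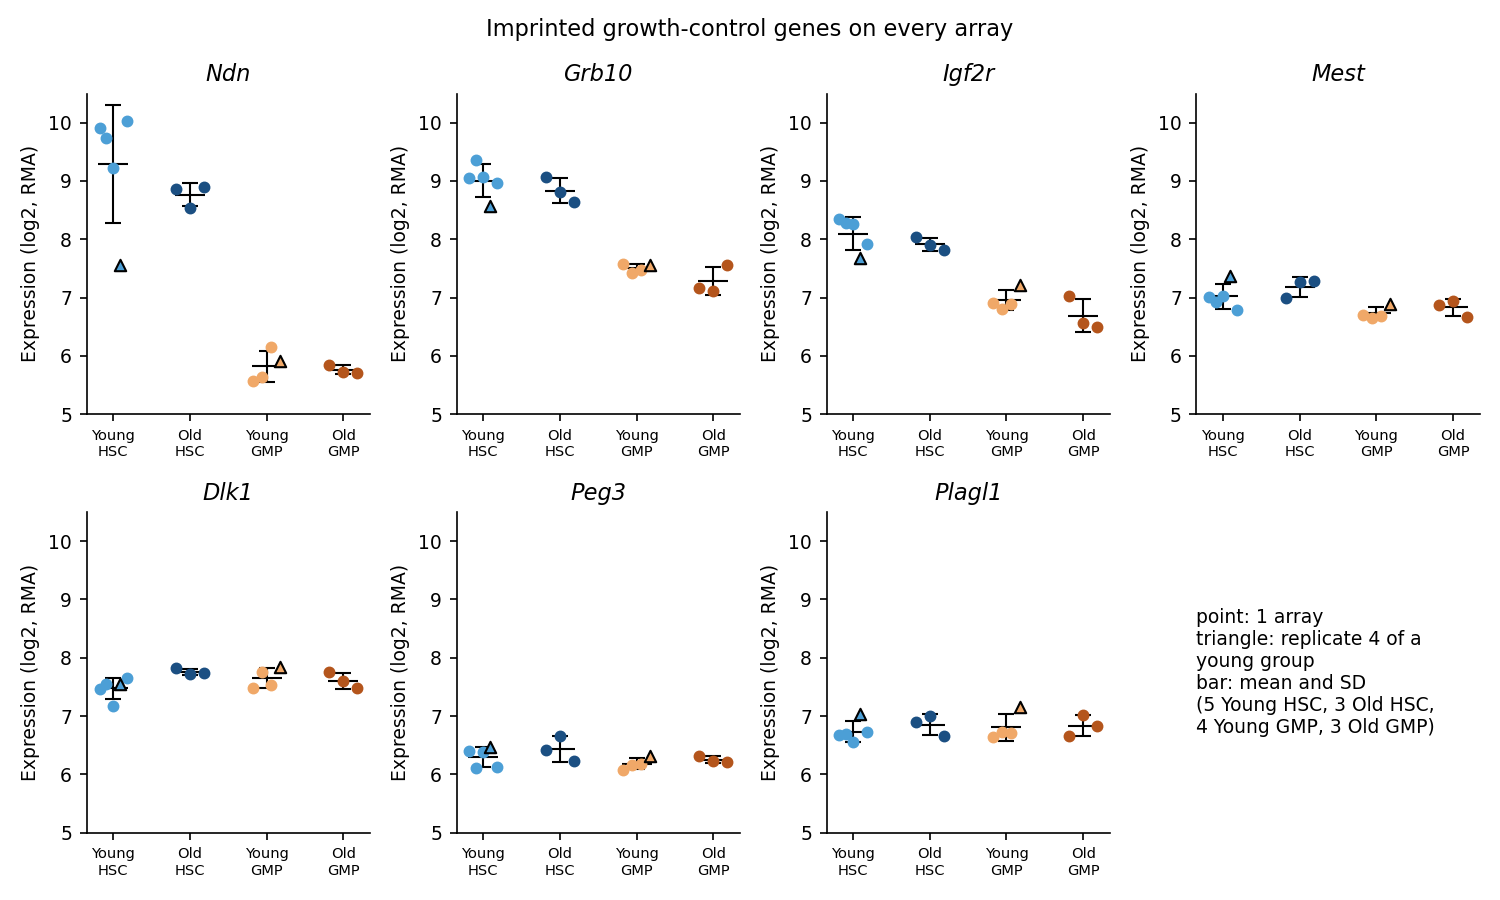
Expression on every array (y axis, RMA log2 values; x axis, the 4 groups) for the 7 measured genes, with the group mean and SD as black bars and replicate 4 of the young groups as triangles. Ndn, Grb10 and Igf2r are higher on all 8 HSC arrays than on all 7 GMP arrays, and Young HSC 4 is the lowest HSC array for each of them.

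Mest, a paternally expressed gene for an alpha/beta hydrolase-fold protein, was at 7.01, 6.93, 7.02, 7.38 and 6.78 on the Young HSC arrays and 6.99, 7.26 and 7.29 on the Old HSC arrays. On the GMP arrays it was at 6.70, 6.66, 6.69 and 6.88 in young and 6.88, 6.95 and 6.67 in old mice. The groups overlapped in young mice, and in old mice they were apart by 0.047 log2. The HSC minus GMP difference was 0.29 ± 0.12 in young (limma adjusted p = 0.0861) and 0.35 ± 0.14 in old mice (limma adjusted p = 0.0936). In this fit, which has no replicate block, it was not called at either age. With the replicate number as a block it was called in young mice at 0.35 (limma adjusted p = 0.0188, and 0.0170 on young arrays alone), and without Young HSC 5 also at 0.35 (limma adjusted p = 0.0433). In old mice it was called at 0.35 with the number as a fixed block (limma adjusted p = 0.0414) and with age and number as a random block (limma adjusted p = 0.028). Without the 7 young arrays it was 0.31 in young mice (limma adjusted p = 0.539). Mest lay below the array median on 14 of 15 arrays.

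Dlk1, Peg3 and Plagl1, all paternally expressed, did not pass the test between HSC and GMP. Dlk1 encodes a membrane protein with EGF-like repeats, related to Notch ligands. Its difference was -0.18 log2 (95% interval -0.41 to 0.06) in young and 0.15 (-0.14 to 0.44) in old mice. Peg3 and Plagl1 encode zinc finger proteins, and both lay below the array median on 15 of 15 arrays, Peg3 below the lower quartile on 8. Peg3 ran from 6.08 to 6.67 and Plagl1 from 6.56 to 7.15 over the 15 arrays. The Peg3 difference was 0.12 in young and 0.18 in old mice, and that of Plagl1 -0.07 and 0.02. Without the 7 young arrays the young differences were -0.030 for Dlk1, 0.33 for Peg3 and 0.022 for Plagl1, none called (limma adjusted p of 0.508 to 0.978). Whether these signals stand above background was not analysed here.

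**Figure D3:**
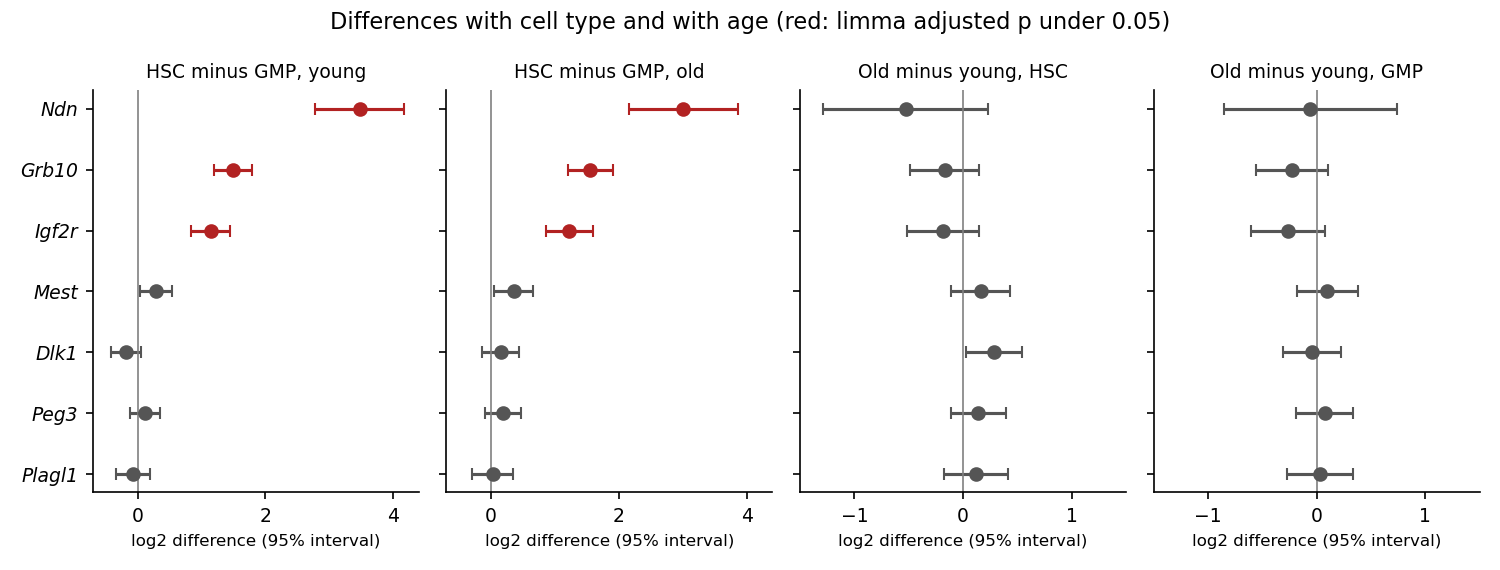
Log2 differences with 95% intervals from limma (x axes, 1 scale for the 2 cell type panels and 1 for the 2 age panels) for the 7 measured genes (rows), red where the adjusted p is under 0.05. The 3 upper genes are red in both comparisons of HSC with GMP (1.14 to 3.47), and no gene is red in either age comparison.

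With age, none of the 7 genes was called in HSC or in GMP by limma. In HSC 11.5% of all genes were called (2.25% higher and 9.22% lower), and at an unadjusted p under 0.05 the counts were 1 of the 7 and 6054 of the 19296. In GMP 0.0% of all genes were called, and at an unadjusted p under 0.05 the counts were 0 of the 7 and 870 of the 19296. The median over the 7 was 0.12 in HSC and -0.04 in GMP, against 0.03 and -0.01 over all genes. The old HSC arrays had interquartile ranges of 1.96 to 2.33 and the young HSC arrays of 2.21 to 2.69. After quantile normalization the calls over all genes in HSC split into 558 higher and 747 lower, against 434 and 1779 as deposited.

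Dlk1 was the gene at an unadjusted p under 0.05. It was at 7.46, 7.56, 7.17, 7.54 and 7.65 on the Young HSC arrays and at 7.82, 7.72 and 7.74 on the Old HSC arrays. The groups did not overlap, with a gap of 0.069 log2, which 5.1% of all genes also showed in this direction. The difference was 0.28 ± 0.12 (95% interval 0.03 to 0.54, limma adjusted p = 0.126). With the pairs of HSC and GMP arrays of one age and number as a random block it was 0.28 and not called (limma adjusted p = 0.118). It was called with the number as a fixed block (0.38, limma adjusted p = 0.0221), which also ties old to young arrays, a pairing the arrays did not show (r = -0.24 to 0.15). It was also called with array weights (0.36, limma adjusted p = 0.00591), and it was 0.30 (limma adjusted p = 0.285) without the 7 young arrays. In GMP Dlk1 differed with age by -0.04 (-0.31 to 0.23).

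The age difference of Ndn in HSC was -0.53 ± 0.36 (95% interval -1.29 to 0.23, limma adjusted p = 0.320), and it depended on 1 array. Young HSC 4 stood at 7.57, against 9.73 ± 0.35 (SD, n = 4) on the other Young HSC arrays, all of which lay above the 3 Old HSC arrays. Without Young HSC 4 the difference was -0.96 and was called (limma adjusted p = 0.000722). With array spread (the interquartile range) as a covariate it was 0.13, of the other sign. Without the 7 young arrays that go against the sex label, Young HSC 4 among them, it was -1.14 (limma adjusted p = 0.0504).

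Young HSC 4 was also the lowest HSC array for Grb10, at 8.57 against 9.11 ± 0.17 (SD, n = 4), and for Igf2r, at 7.69 against 8.20 ± 0.20 (SD, n = 4). It was the highest Young HSC array for Mest, Plagl1 and Peg3. Young HSC 4 also had the narrowest interquartile range of the Young HSC arrays, 2.21 against 2.46 to 2.69 on the others. Its lower quartile, 6.33, was their highest, against 6.10 to 6.22 on the others. On the same array the mean of the 8 stem cell markers was 9.09, the lowest of the 8 HSC arrays, and that of 6 megakaryocyte markers 7.86, the lowest of the Young HSC arrays. The mean of the GMP markers was 6.73 to 6.90 on all HSC arrays. That of macrophage markers was 6.86 on Young HSC 4, against 5.95 to 6.23 on the other Young HSC arrays. Means of neutrophil (6.75), erythroid (7.07), mast and basophil (6.26) and stromal (6.62) markers were also the highest of the Young HSC arrays. Those of endothelial (7.19) and T and NK cell (6.17) markers were the lowest, and that of B cell markers (6.74) lay between. The part of these differences between arrays in the Ndn result was not tested.

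The remaining age differences were not called, and their 95% intervals all included 0. In HSC, Grb10 differed by -0.17 (95% interval -0.48 to 0.15), Igf2r by -0.18 (-0.51 to 0.15), Mest by 0.16, Peg3 by 0.14 and Plagl1 by 0.12. After quantile normalization Grb10 was at 0.13, and Peg3 and Plagl1 came to within 0.003 of 0, so these carry no settled direction. In GMP the 7 differences ran from -0.26 (Igf2r) to 0.10 (Mest). The age differences of HSC and GMP were not shown to differ for any of the 7: the largest were -0.47 ± 0.53 for Ndn and 0.33 ± 0.18 for Dlk1 (smallest limma adjusted p 0.471), and 0.0933% of all genes were called in that test. For Ndn the order of the group means was Young HSC (9.29 ± 1.01), Old HSC (8.77 ± 0.20), Young GMP (5.82 ± 0.27) and Old GMP (5.76 ± 0.08, all SD), in which neighbouring groups overlapped except Old HSC and Young GMP. Grb10 and Igf2r had the same order, and again only Old HSC and Young GMP did not overlap.

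The genes whose profiles over the 15 arrays lay closest to those of the called genes were found by root-mean-square difference, each profile centred on its mean. For Ndn they were Iigp1 (0.420 log2) and Samd12 (0.421), where the Ndn profile itself had a root-mean-square of 1.74. For Grb10 they were Rab37 (0.169) and Arhgef5 (0.185), against 0.792. For Igf2r they were Tie1 (0.178), an endothelial receptor tyrosine kinase also present on stem cells, and Gfpt2 (0.190), against 0.634. Tie1 is also among the endothelial markers described last. All 6 were higher in HSC at both ages, by 0.82 to 3.71 log2. That direction follows from their choice by closeness to genes called higher in HSC, so it is no separate result.

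Imprinted genes lie in clusters, and of 40 neighbours listed for the 8 genes 31 were measured. In young mice 6 were higher and 3 lower in HSC than in GMP, and in old mice 6 and 4. In either direction 24.6% of all genes were called in young and 22.2% in old mice. A count of 0 among a few neighbours is therefore not set apart from all genes. Whether each neighbour is imprinted in these cells was not analysed here. Ndn lies in the Prader-Willi cluster, where Magel2, Mkrn3, Peg12 and Atp10a were measured and 0 of the 4 were called. Snrpn and Ube3a, also among the 6 listed there, were not measured. Their HSC minus GMP differences ran from -0.11 to 0.28 in young and from -0.12 to 0.47 in old mice, beside 3.47 and 3.00 for Ndn. Around Grb10, 0 of 4 neighbours were called higher in HSC; Fignl1, an AAA ATPase gene, was lower in HSC, by differences of -0.61 in young and -1.34 in old mice. Ikzf1, which encodes the lymphoid regulator Ikaros, was lower in old HSC by a difference of -0.55 (limma adjusted p = 0.00105), a call lost after quantile normalization. In contrast Airn, the paternally expressed antisense RNA that overlaps Igf2r, was higher in HSC than in GMP by 1.10 ± 0.15 in young (limma adjusted p = 1.17e-05) and 1.09 ± 0.18 in old mice (limma adjusted p = 0.000156). Airn and Igf2r are read from opposite strands of one region, and how the probe sets separate the strands is not given in the sources used here.

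The genes near Dlk1 included noncoding RNAs that are read from the maternal copy. Meg3 was higher in HSC by 0.41 ± 0.14 in young (limma adjusted p = 0.0362, called in 14 of 22 alternative settings) and by 0.84 ± 0.17 in old mice (limma adjusted p = 0.000973). Rian was higher in old HSC than in old GMP by 1.57 ± 0.26 (limma adjusted p = 0.000153), and its difference in young mice was 0.53 (limma adjusted p = 0.0807). Rtl1 and Begain were not called in either. Dio3, a thyroid hormone deiodinase gene at the far end of the cluster, was lower in young HSC by a difference of -0.44. That call was made in 14 of 21 settings. The Dio3 means of Young HSC and Young GMP and the Rian mean of Old GMP lay below the lower quartile of every array. Whether the Dio3 and Rian signals stand above background was not analysed here. Dlk1 was thus not called between cell types where its noncoding neighbours Meg3 (both ages) and Rian (old mice) were.

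Of the genes near Plagl1, Phactr2 was higher in HSC (0.82 in young, 0.52 in old mice) and Sf3b5 lower (-0.57 and -1.12). Ltv1 was lower in old HSC by a difference of -1.002 (limma adjusted p = 0.00103), called in 18 of 18 settings, and its difference of -0.44 in young mice was not called. Near Mest, Cep41, a centrosomal protein gene, was higher (1.07 and 0.61), and Copg2 was higher in young HSC by 0.36, a call made in 11 of 22 settings. Of the genes near Peg3, Usp29 and Zim1 were measured and 0 of 2 were called. Near H19, Igf2 itself, the growth factor that the Igf2r protein clears, was higher in old HSC than in old GMP by 0.37 ± 0.13 (limma adjusted p = 0.0432, called in 9 of 18 settings), and Lsp1 was higher in young HSC by 1.67.

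**Figure D4:**
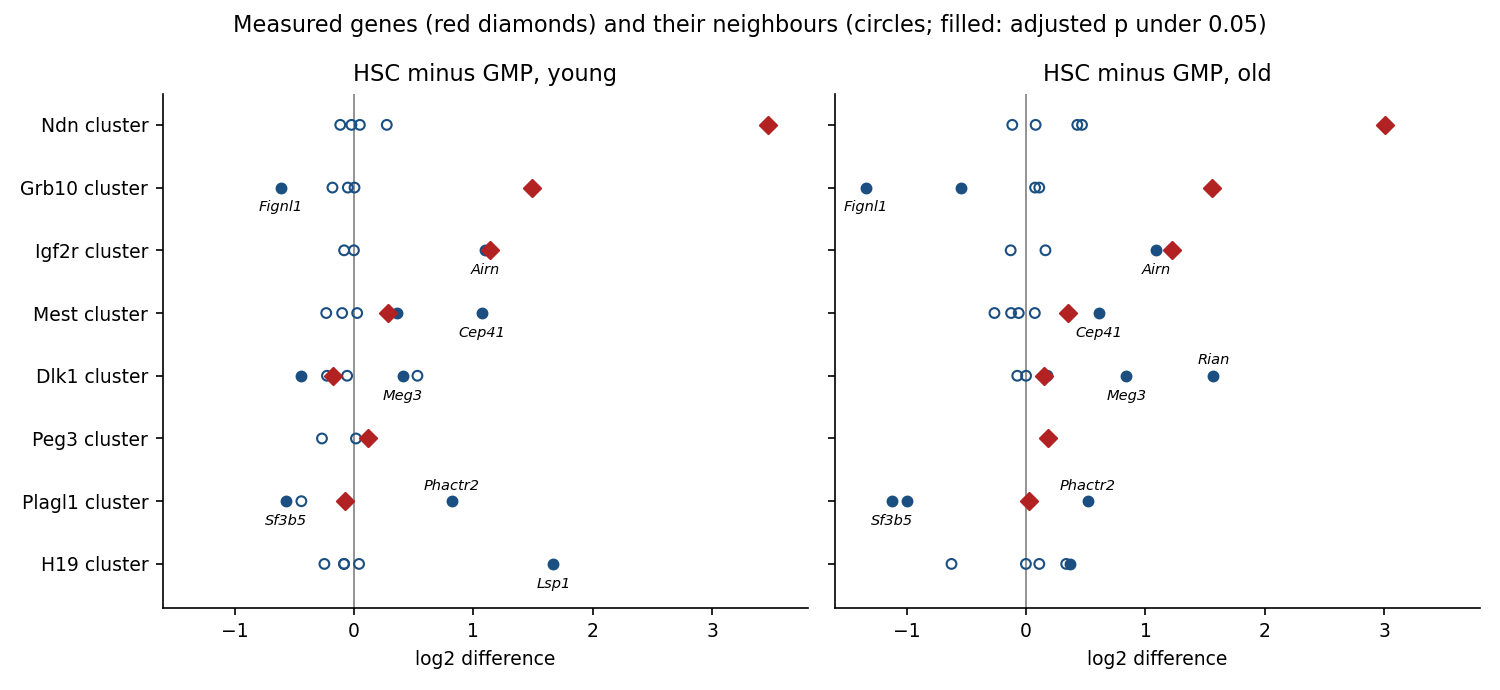
HSC minus GMP log2 differences (x axis) in young and old mice for the measured genes (red diamonds) and their neighbours in the same region (circles, filled where limma adjusted p is under 0.05), 1 row per cluster; H19 has no diamond. The Ndn diamond stands at 3.47 and 3.00 while its 4 neighbours stay between -0.12 and 0.47.

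Among 61 other genes listed as imprinted, 51 were measured. Whether each of them is imprinted in these blood cells was not analysed here. In young mice 14 were higher and 2 lower in HSC than in GMP, and in old mice 13 were higher and 3 lower, with medians of 0.02 and 0.12 (all genes -0.05 and 0.02). Of all genes 13.6% were called higher in young and 9.25% in old HSC (24.6% and 22.2% in either direction). Sgce, which encodes epsilon-sarcoglycan, was higher by 2.88 ± 0.15 in young (limma adjusted p = 3.39e-11) and 1.69 ± 0.19 in old mice (limma adjusted p = 1.24e-06). Ppp1r9a, encoding the actin-binding neurabin, was higher by 1.83 and 1.91, and Htr2a, a serotonin receptor gene, by 1.82 and 1.67. Gab1, an adaptor gene of growth factor receptors, was higher by 1.17 in young mice. With the 7 measured genes added, 17 were higher in HSC in young and 16 in old mice. Of these, 14 were in both, 82.4% of the first list and 87.5% of the second. Both comparisons set the same 2 cell types apart. The overlap over all genes was not analysed here, so these shares have no background to be read against. The 14 were Airn, Asb4, Cd81, Cdkn1c, Gab1, Grb10, Htr2a, Igf2r, Meg3, Ndn, Peg10, Phlda2, Ppp1r9a and Sgce.

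**Figure D5:**
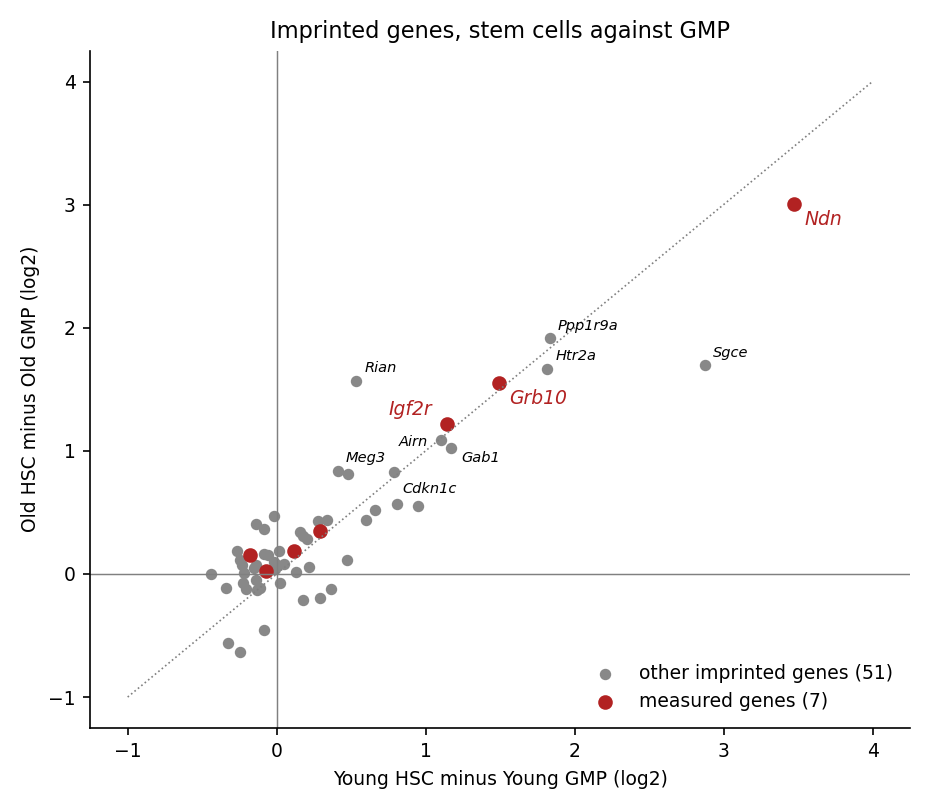
HSC minus GMP log2 differences in young (x axis) and old mice (y axis) for the 7 measured genes (red) and 51 other imprinted genes (grey), 1 point per gene; the dotted line marks equal differences. Ndn lies farthest out at 3.47 and 3.00, and Sgce lies below the line at 2.88 and 1.69.

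With age in HSC, 4 of the 51 were higher and 6 lower, with a median of 0.06 (all genes 0.03), where 2.25% of all genes were called higher and 9.22% lower. Sgce fell with age by 1.08 ± 0.17 (limma adjusted p = 0.00193) and was called in 18 of 20 alternative settings. Commd1 (-0.66), a copper metabolism gene, was called in 9 of 20, the tetraspanin gene Cd81 (-0.63) in 11 of 20 and Rian (0.76) in 6 of 19. In GMP 0 of the 51 were called with age, the largest differences being 0.70 for Tspan32 (limma adjusted p = 0.628) and -0.38 for Pon3. The age difference of Sgce was -1.18 in HSC relative to GMP, which was not called (limma adjusted p = 0.0807).

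Grb10 and Igf2r act on insulin and IGF signalling, of which 28 of 33 listed genes were measured. In young mice 5 were higher and 1 lower in HSC than in GMP, and in old mice 3 were higher and 1 lower, with medians of 0.06 and 0.12. In either direction 24.6% of all genes were called in young and 22.2% in old mice, so the counts in either direction are not above the background. Of all genes 13.6% were called higher in young and 9.25% in old HSC. Pik3r1, the regulatory subunit of PI3-kinase, was higher by 0.97 and 0.68, and Foxo1, a transcription factor that insulin signalling holds out of the nucleus, by 0.69 and 0.63. Igfbp4, which binds IGFs outside the cell, was lower by differences of -0.88 and -1.04. The growth factor gene Igf1 was higher in young HSC by 0.65. With age in HSC (median -0.07) 0 rose and 3 fell: Akt2 (-0.72), Akt1 (-0.53) and Igf1 (-0.45), each lost in 9 or more of 20 alternative settings, where 9.22% of all genes were called lower.

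Dlk1 is related to Notch ligands, and 20 of 21 Notch pathway genes were measured. Between HSC and GMP, 5 were higher and 0 lower in young mice, and 2 higher and 1 lower in old mice, with medians of -0.05 and 0.11. Over all genes 24.6% and 22.2% were called in either direction, and 13.6% and 9.25% higher in HSC. Whether the Notch counts differ from these shares was not tested. The target genes Hes1 and Hey1 were higher in young HSC by 2.13 and 1.21, the receptor gene Notch2 by 0.73. In old mice Hes1 was higher by 1.11, called in 14 of 18 settings. With age in HSC 2 were higher and 3 lower (median 0.18, all genes 0.03; 2.25% and 9.22% of all genes called): Hey1 was lower by a difference of -0.88 (called in 18 of 20 settings) and Hes1 by -1.05 (called in 8 of 20), and Dtx1, an E3 ligase gene of the pathway, was higher by 0.42. Dlk1 itself was not called in these comparisons.

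All 19 listed genes that set or protect imprints were measured. Zfp57, whose product binds the methylated copy of imprinting control regions, was higher in HSC by 0.99 in young (limma adjusted p = 1.90e-06) and 0.98 in old mice (limma adjusted p = 3.46e-05). Uhrf1, which brings Dnmt1 to newly copied DNA, was lower by differences of -0.79 and -1.52, and Dnmt1 by -0.62 in old mice, a call lost after quantile normalization. In all 2 were higher and 4 lower at each age, with medians of -0.09 in young and -0.12 in old mice, beside 24.6% and 22.2% of all genes called in either direction. With age in HSC, Uhrf1 (-0.67) and Trim28 (-0.47), the corepressor partner of Zfp57, were lower, in 15 and 11 of 20 settings.

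Relatives of the measured proteins, 9 of 11 on the table, also differed. Plag1, a zinc finger gene related to Plagl1, was higher in HSC by 3.44 ± 0.15 in young (limma adjusted p = 1.64e-12) and 2.48 ± 0.18 in old mice (limma adjusted p = 5.95e-09), where Plagl1 differed by -0.07 and 0.02. Maged1, a MAGE gene like Ndn, was higher by 2.57 and 1.62, and Maged2 by 0.88 and 0.56. The other 6 of the 9 (13.6% of all genes were higher in young and 9.25% in old HSC) were not called between HSC and GMP, and the medians of the 9 were -0.05 and 0.06. With age in HSC Plag1 (-0.74) and Nsmce3 (-0.58) were lower, in 17 and 13 of 20 settings.

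Some of the measured genes are also expressed in cells outside the sort gates. Of 12 stromal markers, 7 to 9 lay below the array median on all arrays of a group, and their mean per array ran from 6.39 to 6.76 over the 15 arrays; 1 of the 12 was called higher in HSC at each age. Of 9 endothelial markers 3 were called higher in HSC at each age, with means of 7.19 to 7.43 on HSC and 6.88 to 7.15 on GMP arrays, while Cdh5, Kdr, Plvap, Ptprb and Sox17 were below the median on all arrays. Megakaryocyte markers were higher in HSC, 6 of 6 at each age. Of all genes 13.6% were called higher in young and 9.25% in old HSC. The part of these other markers in the levels of Ndn, Grb10 and Igf2r was not tested.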

How the data were processed

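The labels' protocols describe flow-sorted cells, NuGEN amplification and biotin labelling. RMA, affy and limma are named, without versions, per the submitters' processing notes; a probe filter and a genome build are not given in the sources used here. The deposited log2 values of 23309 probe sets on 15 arrays, made by the authors, were used as they stand. Probe sets with 1 symbol (20728) were kept, those with several (1174) or none (1407) left out, and the brightest taken per gene, which left 19296 genes.

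Group means of all 15 arrays were fitted in R 4.3.3 with limma 3.58.1, tested on simulated data. Benjamini-Hochberg adjustment ran over all 19296 genes, and a gene was called at an adjusted p under 0.05. Differences are HSC minus GMP, old minus young, and the age effect of HSC less that of GMP. Array number limits the precision. A marker mean averages the log2 values of a list on 1 array.

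Same-numbered Young HSC and Young GMP arrays deviated together from their group means (r = 0.29, 0.23, 0.16 and 0.52 for replicates 1 to 4). The number, which comes from the labels, paired arrays only in the alternatives with a replicate block. The fit reported has no block, so its p-values ignore this pairing.

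The measured genes and the lists were chosen with earlier results of these data known. Named beside them are, per called gene, the 2 nearest profiles; from each list up to 4 called genes by size per comparison, or up to 2 with the largest difference where none was called; and neighbours in their clusters. The alternatives were quantile normalization, the interquartile range as covariate, the mean of probe sets, dim genes left out, array weights, other moderation, a replicate block, fewer groups, and arrays left out.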

Additional observations from a re-analysis of the deposited data

Results flagged for a closer look

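In 120 groups of 4 or 5 young arrays, 9 had 1 array far from the rest by Dixon's test, where chance gives about 1 in 20. Young GMP 4 stood apart for Plagl1 (high, at 7.15 log2), Igf1 (high, at 6.92), Commd1 (low, at 9.09), Pon3 (low, at 7.87) and Dnmt1 (low, at 11.02). Young HSC 4 stood apart for Cd81 (low, at 10.68) and Arid4b (high, at 10.13). Young HSC 3 was high for Zfp57 (8.53) and Young GMP 3 for Maged2 (6.70).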

How the results depend on the processing

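Ndn, Grb10 and Igf2r were called between HSC and GMP in all 22 alternatives for young mice (3.28 to 4.33, 1.38 to 1.62 and 1.03 to 1.45 log2) and all 18 for old mice (2.94 to 3.33, 1.44 to 1.80 and 1.12 to 1.39). For age in HSC, 0 of the 7 genes were called as deposited, 2 with array weights (Dlk1 and Ndn), 1 with the fixed replicate block (Dlk1), 1 without replicate 4 of both young groups (Ndn), and 0 to 1 when single arrays were left out. Mest was called in young mice also after quantile normalization (0.30), with the interquartile range as covariate (0.35) and with array weights (0.27), and in old mice at 0.35 with either replicate block and without replicate 4 of both young groups. The block changed no other call among the 7 genes. Same-numbered Old HSC and Old GMP arrays correlated at 0.05 to 0.42, and the fixed and random blocks over all arrays tied these too. Over all genes, calls with age in HSC were 434 higher and 1779 lower, against 56 and 50 with the interquartile covariate and 4108 and 4858 with array weights.

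Nrarp, called higher in young HSC at 0.56, was -0.15 without the 7 young arrays. Uncalled differences of the 7 genes changed sign as follows; the causes were not tested. Quantile normalization gave, for age in HSC, Grb10 0.13, Peg3 -0.00145 and Plagl1 -0.00257; in old mice Plagl1 -0.084; and between age effects Peg3 -0.063, Plagl1 -0.034 and Mest -0.04. The interquartile covariate gave, for age in HSC, Grb10 0.040, Peg3 -0.040, Plagl1 -0.21, Ndn 0.13 and Mest -0.040; for age in GMP Plagl1 -0.043 and Ndn 0.079; for Plagl1 0.026 in young and -0.14 in old mice; and between age effects Peg3 -0.075, Plagl1 -0.17, Ndn 0.048 and Mest -0.10. Array weights gave Ndn 0.010 (age in GMP) and Mest -0.11 (between age effects). The fixed block gave Dlk1 0.0063 for age in GMP. Without replicate 4 of both young groups Dlk1 was 0.018 for age in GMP, and between age effects Igf2r was -0.11 and Grb10 -0.068. Without the 7 young arrays, Dlk1 was 0.12 and Ndn 0.18 for age in GMP, Plagl1 0.022 in young mice, and between age effects Igf2r -0.23, Peg3 -0.15 and Plagl1 -0.000809. Leaving out single arrays gave, for age in GMP, Dlk1 -0.12 to 0.023, Plagl1 -0.064 to 0.14 and Ndn -0.14 to 0.051; Plagl1 -0.14 to 0.043 in young and -0.069 to 0.12 in old mice; and between age effects Igf2r -0.023 to 0.24, Grb10 -0.055 to 0.20, Peg3 -0.047 to 0.17, Plagl1 -0.022 to 0.19 and Mest -0.018 to 0.16.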
